A study of Mus musculus with 10 samples.

Results

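The aminoacyl tRNA synthetases are the enzymes that join each amino acid to its transfer RNA. They were followed in splenic monocytes of mice with and without a transplanted leukaemia. The members were named by gene symbol, 20 for the cytosolic enzymes and 15 for the mitochondrial enzymes (symbols ending in s2), and 34 of these 35 were among the 21946 genes named on the array. All mice were C57BL/6 and 3 months old. The TCL1-AT group (5 samples) came from mice that had received murine CLL (chronic lymphocytic leukaemia) cells 6 weeks earlier, taken from Eµ-TCL1 animals, whose TCL1 transgene is active in B cells. The WT group (5 samples labelled as pools) came from matched C57BL/6 mice listed with no intervention. Cells had been sorted from spleen as lineage negative and CD11b positive, with intermediate F4/80, low to intermediate CD11c and low MHC class II. Neither the size of the pools nor the number of mice behind a TCL1-AT sample is labelled, so the p-values measure the spread between these samples.

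Each of these enzymes attaches its own amino acid to the matching tRNA, and the charged tRNAs feed the ribosome. Most amino acids have a cytosolic enzyme and a separate nuclear-encoded mitochondrial enzyme, while the genes of the glycine and lysine enzymes, Gars and Kars, each supply both compartments. In the cytosol of mammals several synthetases sit together on scaffold proteins in the multisynthetase complex. When amino acids run short, uncharged tRNA activates the kinase GCN2, which raises the translation of ATF4, a transcription factor that induces many cytosolic synthetase genes. Some of these enzymes are also linked to signalling: the tryptophan enzyme Wars is induced by interferon gamma, and the leucine enzyme Lars takes part in leucine sensing by mTORC1.

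Of the 35 genes, 34 had a probe, and 29 were tested, meaning that at least 1 probe had a detection p under 0.05 on at least 5 of the 10 arrays. Of the tested genes, 28 were detected on all 10 arrays and Aars2 on 2 TCL1-AT and 5 WT arrays. Cars, Yars, Hars2, Nars2 and Yars2 were not tested, with means of 4.15 to 4.36 in both groups on a scale whose array medians were 4.30. The probes of Yars and Hars2 were detected on 0 arrays and those of Cars, Nars2 and Yars2 on at most 2. No probe was named for Dars. Values are normalized log2 signals of the brightest detected probe of a gene, differences are TCL1-AT minus WT with their standard error (SE), and calls were made in limma's test at an adjusted p under 0.05 (Benjamini-Hochberg, over all 14859 features). Levels of different probes are not comparable, so only differences are set against each other.

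The raw intensity differed slightly between the groups, with array medians of 91.8 ± 1.19 for the TCL1-AT arrays and 85.0 ± 4.99 for the WT arrays (SD, n = 5 per group, 2-sided exact permutation p = 0.0317), and the shares of detected probes were 44.5% and 44.3% (exact permutation p = 0.667). Among the monocyte markers, 6 of 8 were tested, at mean signals of 9.88 to 10.0 in TCL1-AT and 10.02 to 10.25 in WT. Every TCL1-AT array thus lay below every WT array in this mean. Adgre1, which encodes the sort marker F4/80, was called lower (log2 difference -0.91, SE 0.16, adjusted p = 0.00115) and Lyz2 higher (0.29, SE 0.08, adjusted p = 0.0184), and Csf1r, Itgam, Cx3cr1 and Nr4a1 were not called. Markers of other cells also moved with the groups. Of 8 B cell markers 3 were tested, with a mean of 6.03 to 6.91 on TCL1-AT arrays, highest on TCL1-AT 3, and 5.65 to 5.86 on WT arrays. Cd79b (log2 difference 0.60) and Fcrla (0.93) were called higher. Ms4a1 (-0.02) was not called, at low means of 4.36 in TCL1-AT and 4.38 in WT. Pax5, Ebf1 and Blk had probes below the detection filter. The haemoglobin genes Hba-a1 and Hbb-b1, the tested 2 of 4 erythroid markers, averaged 9.64 to 11.1 and 7.00 to 9.31. The tested 5 of 10 T and NK cell markers averaged 6.04 to 6.52 and 6.65 to 6.94, with Cd3d, Cd3e and Cd3g called lower and Prf1 higher, and the tested 5 of 6 cell cycle genes 5.83 to 6.45 and 6.67 to 7.31. Neutrophil markers, 7 of 8 tested, overlapped (10.83 to 11.74 and 10.96 to 11.64). The only plasma cell marker tested of 3, Mzb1, stood at 4.99 to 8.09 and 4.18 to 4.84, and dendritic cell markers (3 of 5 tested) at 5.17 to 6.00 and 4.84 to 5.20. Of these, Zbtb46 was called higher (log2 difference 1.57, SE 0.13, adjusted p = 1.56e-06), at means of 5.85 in TCL1-AT and 4.29 in WT. Siglech (0.50) and Clec9a (-0.07) were not called. The part of these markers in the synthetase differences was not tested, and in such bulk samples a changed cell mixture and a changed RNA level per cell cannot be told apart.

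More cytosolic synthetases were called higher than lower in monocytes of TCL1-AT mice, and the changes were small. Of the 17 tested, 6 rose (35.3%, where 12.3% of all features were called higher) and 2 fell (11.8%, where 15.4% of all features were called lower). The risers were Rars, Aars, Gars, Farsb, Lars and Mars1 at 1.26-fold to 1.40-fold, and the fallers were Iars and Nars at 1.28-fold and 1.22-fold. Of the 12 mitochondrial enzymes tested, 2 rose (16.7%), Ears2 and Tars2, and 1 fell (8.33%), Mars2. The median difference was 0.17 on the log2 scale for the cytosolic and -0.03 for the mitochondrial enzymes, beside 0.02 over all features. Across both classes the groups did not overlap for 11 of 29 genes (37.9%), beside 20.5% of all features. With the median raw signal of each array as a covariate, 2 cytosolic enzymes were called higher (Aars and Rars) and 1 lower (Nars), and Ears2 alone of the mitochondrial enzymes was called, while 5.16% of all features were called higher and 7.05% lower. WT 1, at 92.1, was the only WT array whose median raw signal lay among those of the TCL1-AT arrays (90.3 to 93.4).

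**Figure D1:**
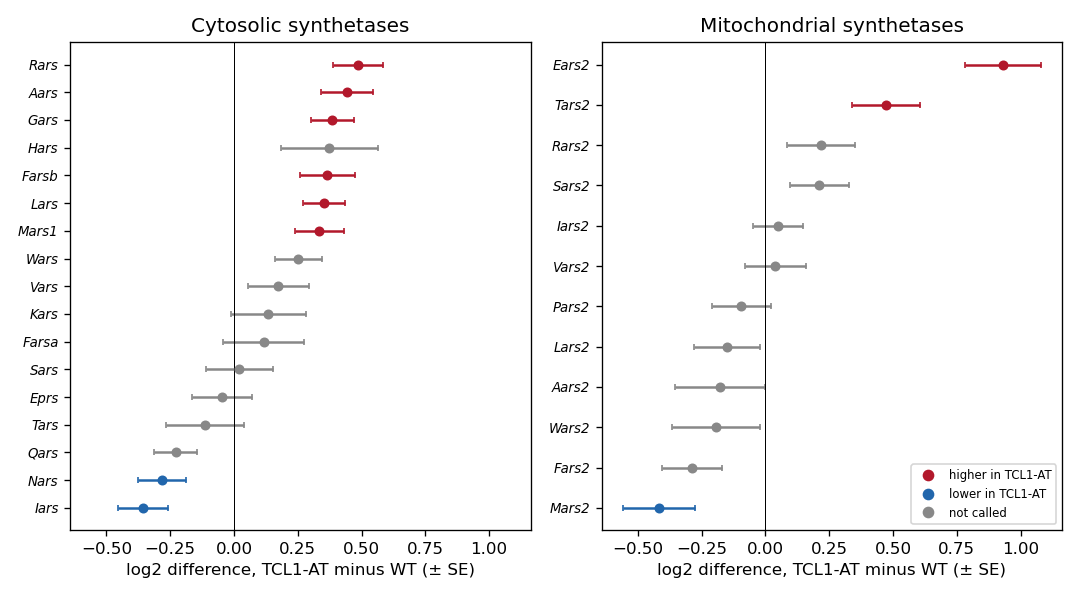
Log2 difference (TCL1-AT minus WT, x axis) with its standard error for each tested synthetase, cytosolic on the left and mitochondrial on the right. Red points were called higher, blue lower and grey not called; the cytosolic differences run from -0.36 (Iars) to 0.49 (Rars) and the mitochondrial ones from -0.42 (Mars2) to 0.93 (Ears2).

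Many cytosolic synthetase genes are known ATF4 targets, so the promoters were read beside the measurements. The RefSeq promoter table of build GRCm38.p6 gives 250 bases before to 50 after each annotated start, and 26 of the 35 genes were matched to it and used, 13 in each class. They were searched on both strands for the core of the C/EBP-ATF response element bound by ATF4 with its partners (TGATGNAA) and for the E-box of MYC and related factors (CACGTG). The first motif was found in 5 of 13 cytosolic and 0 of 13 mitochondrial genes, and in 3.97% of all 32851 promoters of the table. The E-box was found in 4 of 13 and 1 of 13, and in 7.15% of all promoters. The 5 promoters with the first motif are shown because these genes did not move together: Aars and Gars rose, Iars fell, Tars was not called and Yars was not detected. Capitals mark the matches of both motifs, which overlap in none of them, and all sequences run 5′ to 3′ in the direction of the gene.
Aars (chr8:111033592-111033891, plus strand): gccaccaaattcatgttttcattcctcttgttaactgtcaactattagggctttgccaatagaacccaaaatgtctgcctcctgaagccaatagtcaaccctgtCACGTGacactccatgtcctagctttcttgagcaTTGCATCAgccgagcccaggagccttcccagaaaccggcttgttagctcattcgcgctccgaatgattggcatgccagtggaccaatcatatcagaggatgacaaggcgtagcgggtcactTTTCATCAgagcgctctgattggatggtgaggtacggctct
Gars (chr6:55037751-55038050, plus strand): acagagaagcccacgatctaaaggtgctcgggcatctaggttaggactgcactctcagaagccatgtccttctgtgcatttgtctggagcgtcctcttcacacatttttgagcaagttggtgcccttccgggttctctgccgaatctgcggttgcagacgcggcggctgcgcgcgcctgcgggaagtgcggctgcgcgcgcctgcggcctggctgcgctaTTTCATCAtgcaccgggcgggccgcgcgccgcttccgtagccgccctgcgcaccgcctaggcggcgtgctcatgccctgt
Iars (chr13:49681880-49682179, plus strand): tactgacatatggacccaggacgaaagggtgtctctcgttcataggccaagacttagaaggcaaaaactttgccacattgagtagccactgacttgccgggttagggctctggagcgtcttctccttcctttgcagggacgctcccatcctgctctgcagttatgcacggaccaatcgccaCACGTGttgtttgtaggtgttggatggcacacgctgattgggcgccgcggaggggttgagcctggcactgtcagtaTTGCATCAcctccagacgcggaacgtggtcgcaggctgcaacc
Tars (chr15:11399609-11399908, minus strand): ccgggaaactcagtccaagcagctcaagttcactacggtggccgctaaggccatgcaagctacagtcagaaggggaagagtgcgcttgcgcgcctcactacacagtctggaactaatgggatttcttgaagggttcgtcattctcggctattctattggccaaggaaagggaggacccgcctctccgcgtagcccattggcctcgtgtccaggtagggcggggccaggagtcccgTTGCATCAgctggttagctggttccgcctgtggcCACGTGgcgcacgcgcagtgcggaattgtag
Yars (chr4:129189653-129189952, plus strand): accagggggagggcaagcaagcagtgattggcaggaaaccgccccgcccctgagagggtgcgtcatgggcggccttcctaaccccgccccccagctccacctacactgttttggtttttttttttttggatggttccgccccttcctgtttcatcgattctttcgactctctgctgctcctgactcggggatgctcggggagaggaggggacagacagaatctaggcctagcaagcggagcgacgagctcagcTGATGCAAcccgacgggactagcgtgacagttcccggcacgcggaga

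Aars held the response element core beginning 112 bases before and again 9 bases after the start, and Gars held it 30 bases before. In Iars it began 7 bases after, in Tars 15 bases before and in Yars 3 bases after the start. E-boxes stood in the promoters of Aars, Iars, Tars and Farsb among the cytosolic genes, and of Ears2 among the mitochondrial genes. Of the 6 genes that rose and whose promoters were used, 2 held the response element core and 3 an E-box. These matches describe letters in the window and were not tested against expression.

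Among the enzymes of the multisynthetase complex, 7 of 8 were tested, 3 rose (42.9%) and 1 fell (14.3%). Of all features, 12.3% were called higher and 15.4% lower, and this split was made after the values were seen. The arginine enzyme Rars showed the largest cytosolic rise, at 8.58, 8.74, 8.64, 8.69 and 8.58 on the TCL1-AT arrays and 7.90, 8.23, 8.33, 8.16 and 8.18 on the WT arrays. The groups did not overlap, and WT 1 was the lowest array. The log2 difference was 0.49 (SE 0.10, adjusted p = 0.00254), and the other probe of Rars gave 0.73 and was called higher too. Lars read 9.89, 10.00, 10.00, 10.07 and 10.01 in TCL1-AT and 9.73, 9.56, 9.60, 9.63 and 9.69 in WT. The TCL1-AT arrays all lay above the WT arrays, the log2 difference being 0.35 (SE 0.08, adjusted p = 0.00697), while a further probe of Lars gave 0.18 and was not called. The methionine enzyme, Mars1 on the array, stood at 6.40, 6.62, 6.58, 6.48 and 6.43 against 6.35, 6.08, 6.26, 6.03 and 6.12. Its lowest TCL1-AT array, replicate 1, lay just above its highest WT array, WT 1. The log2 difference of Mars1 was 0.33 (SE 0.10, adjusted p = 0.0193), and without TCL1-AT 2 the call was lost.

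The isoleucine enzyme Iars, a part of the same complex, moved the other way. Its signals were 7.96, 7.99, 7.96, 8.11 and 7.82 in TCL1-AT and 8.31, 8.41, 8.24, 8.51 and 8.15 in WT, with no overlap. The log2 difference was -0.36 (SE 0.10, adjusted p = 0.0158), and a second probe gave -0.50 and was called lower. Qars, which charges glutamine tRNA, read 10.37, 10.39, 10.39, 10.55 and 10.38 against 10.71, 10.63, 10.62, 10.68 and 10.58. All TCL1-AT arrays lay below all WT arrays, but the difference of -0.23 (SE 0.08) was not called (adjusted p = 0.0577). It was called without TCL1-AT 4, the highest TCL1-AT array. The call was also made without background correction, without the detection filter and with only probes detected on all 10 arrays. Eprs, which charges both glutamate and proline tRNAs, differed by -0.05 (SE 0.12) and the lysine enzyme Kars by 0.13 (SE 0.15). Neither was called, and the second probe of Eprs gave 0.39 (adjusted p = 0.0695 over all detected probes).

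Of the 12 other cytosolic synthetases, 10 were tested, 3 rose (30%) and 1 fell (10%), beside 12.3% and 15.4% of all features. The alanine enzyme Aars stood at 9.06, 9.03, 9.11, 9.23 and 8.95 in TCL1-AT and 8.66, 8.48, 8.76, 8.46 and 8.80 in WT. The groups were separate, and the log2 difference was 0.44 (SE 0.10, adjusted p = 0.0055). Gars, the glycine enzyme, read 11.65, 11.79, 11.66, 11.82 and 11.75 against 11.36, 11.23, 11.40, 11.34 and 11.42. This gap was wide beside the spread within either group (SD 0.07 in each), the log2 difference being 0.39 (SE 0.09, adjusted p = 0.00454). A second probe of Gars, detected on 6 arrays, gave 0.28 and was not called, and the mean of both probes was not called.

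The phenylalanine enzyme is built from Farsa and Farsb subunits, and its beta subunit gene Farsb rose. Farsb read 9.72, 9.58, 9.47, 9.98 and 9.54 in TCL1-AT and 9.29, 9.18, 9.39, 9.37 and 9.23 in WT. TCL1-AT 4 was the highest array and the groups did not overlap. The log2 difference was 0.37 (SE 0.11, adjusted p = 0.0235), with 0.39 at its other probe, and the call was lost without WT 2 or without WT 5. Farsa, the alpha subunit, differed by 0.12 (SE 0.16, adjusted p = 0.622) with overlapping groups. The asparagine enzyme Nars stood at 8.17, 8.17, 8.06, 8.08 and 8.08 in TCL1-AT and 8.46, 8.35, 8.23, 8.61 and 8.31 in WT. The groups were separate by a narrow gap between TCL1-AT 2 and WT 3, the log2 difference was -0.28 (SE 0.09, adjusted p = 0.0406), and the call was lost when any 1 of 8 arrays was left out, all but WT 3 and WT 5.

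The tryptophan enzyme Wars read 8.94, 8.96, 8.97, 9.17 and 8.97 in TCL1-AT and 8.83, 8.71, 8.70, 8.63 and 8.90 in WT. All TCL1-AT arrays were above all WT arrays, and the difference of 0.25 (SE 0.09) was not called (adjusted p = 0.0577), nor was that of any of its other probes, which gave 0.08 to 0.31. The call of Wars was made without WT 5, without background correction, without the detection filter and with only probes detected on all 10 arrays. The histidine enzyme Hars differed by 0.37 (SE 0.19, adjusted p = 0.163), with TCL1-AT 4 at 4.57 below every WT array and the other TCL1-AT arrays at 5.29 to 5.83 above them, and the call was made without TCL1-AT 4. The valine enzyme Vars differed by 0.17, the serine enzyme Sars by 0.02 and the threonine enzyme Tars by -0.11 (SE 0.12 to 0.15), all with overlapping groups and not called. Other detected probes gave 0.31 for Hars, 0.30 and -0.06 for Vars, -0.25 for Sars and -0.11 for Tars, and none was called.

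**Figure D2:**
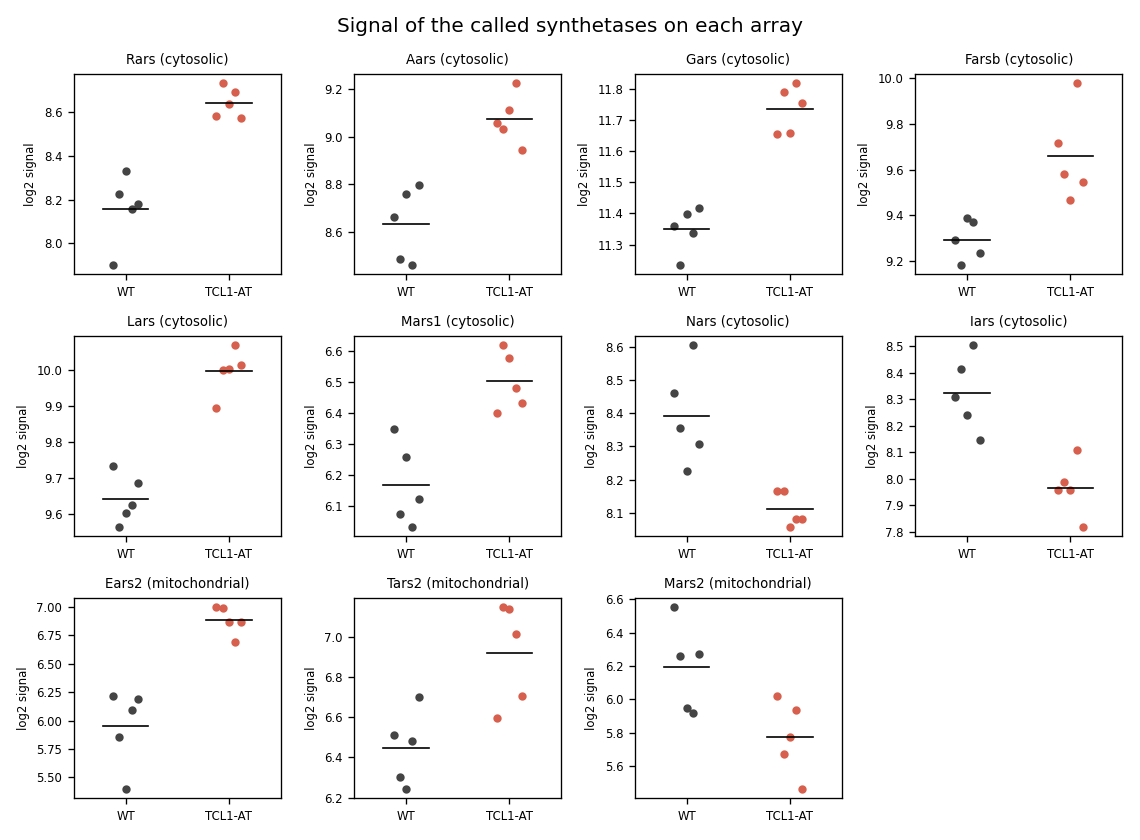
Normalized log2 signal (y axis, a separate scale for each gene) of the 11 called synthetases on every array, WT in grey and TCL1-AT in red, with the group mean as a line. The groups are separate in 9 panels; in Tars2 the TCL1-AT values start at 6.60 and the WT values reach 6.70, and in Mars2 they reach 6.02 against a lowest WT value of 5.92.

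Mitochondrial synthetases load the tRNAs encoded by the mitochondrial genome. The largest difference of any member was in Ears2, which charges mitochondrial glutamate tRNA and also places glutamate on the glutamine tRNA. Ears2 read 7.00, 6.99, 6.87, 6.69 and 6.87 on the TCL1-AT arrays and 6.22, 5.85, 5.40, 6.09 and 6.19 on the WT arrays. The groups were far apart, with WT 3 the lowest array, and the 1.91-fold rise had a log2 difference of 0.93 (SE 0.15, adjusted p = 0.00045). Over the 18 alternative settings the difference of Ears2 ran from 0.507 to 0.999, with adjusted p of at most 0.0459 in limma's test. With 1 array left out it was at least 0.794. A second probe of Ears2 was detected on only 2 arrays and was not tested. The threonine enzyme Tars2 read 6.60, 7.15, 7.14, 7.01 and 6.71 against 6.51, 6.30, 6.24, 6.48 and 6.70. TCL1-AT 1 lay below WT 5, so the groups overlapped, and the log2 difference of Tars2 was 0.47 (SE 0.13, adjusted p = 0.0179).

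The mitochondrial methionine enzyme Mars2 was the only mitochondrial member called lower. It stood at 6.02, 5.67, 5.77, 5.93 and 5.46 in TCL1-AT and 6.55, 6.26, 5.95, 5.92 and 6.27 in WT. TCL1-AT 1 lay above WT 3 and WT 4, and the log2 difference of -0.42 (SE 0.14, adjusted p = 0.0428) came with -0.44 at the other probe, also called. The call of Mars2 was lost without any 1 of TCL1-AT 2, 3 and 5 or WT 1, 2 and 5, and with median scaling of the arrays.

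Of the mitochondrial partners of the cytosolic enzymes that changed, Nars2 was not tested, and among those tested only Mars2 was called. Aars2 read 4.68, 4.68, 4.24, 4.42 and 4.26 in TCL1-AT, close to background, and 4.45, 4.39, 4.49, 4.50 and 5.34 in WT, where WT 5 stood apart. Fars2 read 8.83, 8.83, 8.62, 8.82 and 8.57 against 9.33, 8.78, 9.10, 8.86 and 9.04, a difference of -0.29 (SE 0.12, adjusted p = 0.0829) with only WT 2 among the TCL1-AT values. Both pairs of groups overlapped, and Fars2 was called lower without WT 2 and without background correction. Rars2 read 7.29, 7.38, 7.04, 7.73 and 7.21 against 6.98, 7.09, 7.09, 6.99 and 7.41, a difference of 0.22 (SE 0.13, adjusted p = 0.245). Lars2 read 6.45, 7.07, 6.64, 6.79 and 6.41 against 6.69, 6.76, 6.76, 6.91 and 6.99, a difference of -0.15 (SE 0.13). Iars2 read 8.29, 8.41, 8.39, 8.55 and 8.21 against 8.42, 8.23, 8.30, 8.20 and 8.47, with overlap throughout and a difference of 0.05 (SE 0.10). The remaining mitochondrial enzymes were not called, with differences of 0.21 for Sars2, 0.04 for Vars2, -0.10 for Pars2, the proline enzyme, and -0.19 for Wars2.

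Within the same array, the cytosolic and mitochondrial enzymes for an amino acid differed in how they changed for several amino acids. The difference between both log2 differences was tested in 11 pairs, with exact permutation tests over the 10 samples, 2-sided, adjusted over the pairs. This comparison was chosen after the values were seen, and the smallest p it allows is 0.00794. In 5 of 11 pairs the adjusted p was under 0.05. The pairs were not tested again with the raw signal covariate, median scaling, another detection filter or the replicate block. With that covariate the single calls of Farsb, Lars, Mars1, Iars and Mars2 were lost in limma's test. The change of Mars1 exceeded that of Mars2 by 0.75 (SE 0.15) and that of Farsb exceeded that of Fars2 by 0.65 (SE 0.12), each in 5 of 5 TCL1-AT arrays relative to the WT mean (exact permutation adjusted p = 0.0218 each). The alanine pair, at 0.62 (SE 0.18, exact permutation adjusted p = 0.0218), rests on Aars2, which was detected on 2 of 5 TCL1-AT arrays at a mean of 4.46 and whose own difference was -0.000577 without WT 5. The change of Lars exceeded that of Lars2 by 0.51 (SE 0.13, exact permutation adjusted p = 0.0349), which was 0.0524 without any 1 of TCL1-AT 1 and 3 and WT 2, 3, 4 and 5. Iars went the other way, by -0.41 against Iars2 (SE 0.11, exact permutation adjusted p = 0.0218). Without WT 5 the adjusted p of the alanine and methionine pairs was 0.0524 in the same exact test.

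The other 6 pairs did not pass. For threonine the cytosolic enzyme changed by -0.59 relative to the mitochondrial one (SE 0.23, exact permutation adjusted p = 0.0873), and this passed without TCL1-AT 5, without WT 1, with the mean over probes and without background correction. The arginine pair differed by 0.27 (SE 0.13, exact permutation adjusted p = 0.12) and passed without TCL1-AT 4 and with the mean over probes. The tryptophan pair differed by 0.45 (SE 0.23) and passed without WT 1 and without background correction. The serine pair, at -0.19 (SE 0.14), passed with the mean over probes. Farsa and Fars2 differed by 0.41 (SE 0.22) and the valine pair by 0.13 (SE 0.12). Farsa and Farsb were set against the same Fars2 values.

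**Figure D3:**
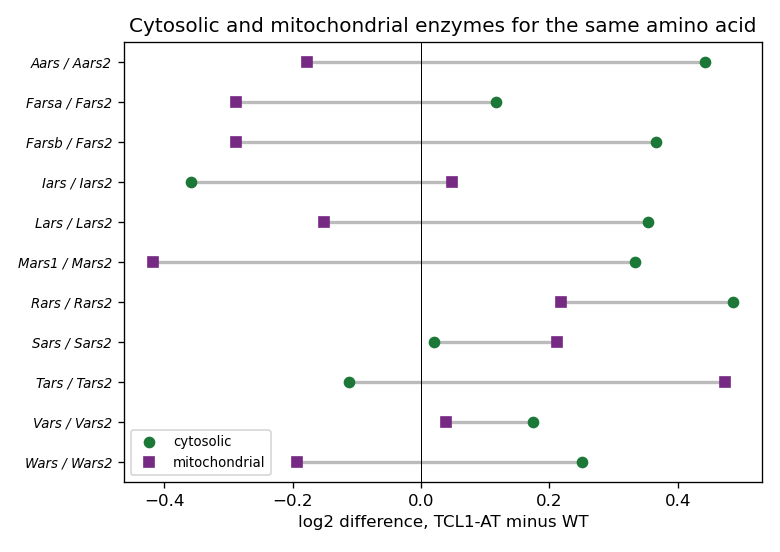
Log2 difference (TCL1-AT minus WT, x axis) of the cytosolic enzyme (green circle) and the mitochondrial enzyme (purple square) for the same amino acid, joined by a grey line. The cytosolic point lies to the right for Aars, Farsb, Lars and Mars1 and to the left for Iars, the 5 pairs whose difference passed the exact test.

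Averaged over the 17 tested cytosolic genes, each taken relative to its own mean over the 10 arrays, the TCL1-AT arrays lay at 0.01 to 0.15 and the WT arrays at -0.12 to -0.01. TCL1-AT 2 was the highest and WT 2 the lowest, and the groups came closest at TCL1-AT 1 and WT 5. For the 12 mitochondrial genes the TCL1-AT arrays lay at -0.05 to 0.12 and the WT arrays at -0.14 to 0.18, with WT 5 the highest of all 10 arrays. TCL1-AT 3, which had the highest B cell marker mean, lay at 0.08 in the cytosolic average, inside the range of the other TCL1-AT arrays, and WT 3 and WT 4, which had the highest cell cycle means of 7.28 and 7.31, lay at -0.08 and -0.06. These averages describe genes chosen by name and carry no test. The means of the monocyte, B cell, T and NK cell, erythroid and cell cycle lists each separated the groups. So did Mzb1, the only plasma cell marker tested. The part of these markers in the synthetase averages was not tested.

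**Figure D4:**
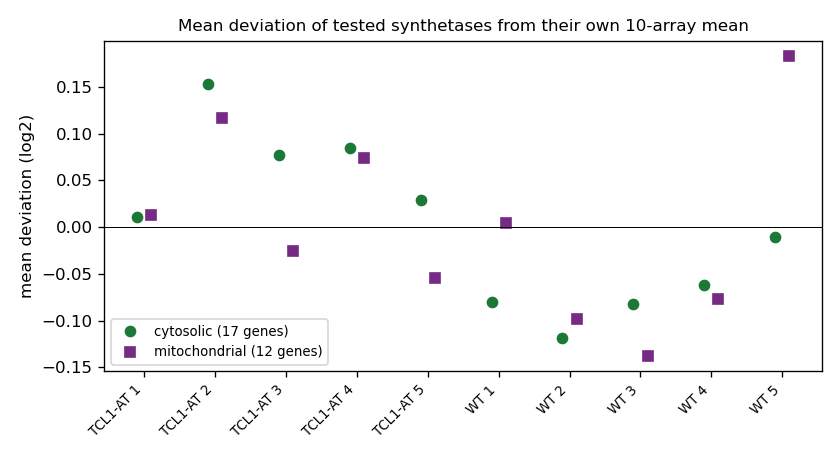
Mean deviation (log2, y axis) of the 17 cytosolic (green circles) and 12 mitochondrial (purple squares) synthetases from their own mean over 10 arrays, for each array. Cytosolic values are above 0 on the 5 TCL1-AT arrays and below 0 on the 5 WT arrays, and the highest mitochondrial value, 0.18, is on WT 5.

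Genes that work beside the synthetases moved in both directions, with 10 of 44 tested called higher and 6 lower, where 12.3% and 15.4% of all features were called. Without WT 4 the number called higher was 6. With the raw signal covariate it was 3 (Asns, Mthfd2 and Tsfm), and 2 were called lower (Prorsd1 and Eef1b2), so that the calls of the other 11 genes were lost, among them Gfm2 (0.26, adjusted p = 0.279), Dtd1 (-0.38, adjusted p = 0.22), Psat1 (-0.61, adjusted p = 0.117) and Eif5a (0.62, adjusted p = 0.0598). Among the scaffold genes of the multisynthetase complex, Aimp1 fell by 0.39 on the log2 scale (SE 0.11, adjusted p = 0.02), a call lost without TCL1-AT 5, while Aimp2 (0.32, adjusted p = 0.104) and Eef1e1 (0.14, adjusted p = 0.38) were not called. Among 5 tested mitochondrial charging genes, Qrsl1, a subunit of the amidotransferase that turns the glutamate placed by Ears2 into glutamine, rose by 0.33 (SE 0.10, adjusted p = 0.0207), a call lost without WT 4. Gatb and Gatc, the other subunits, differed by 0.13 and -0.07, and Cars2 and Mtfmt by 0.01 and -0.06, and none was called. Of 5 tested genes for proofreading and selenocysteine charging, 2 fell: Prorsd1, a homologue of the prolyl-tRNA editing domain, by 0.62 (SE 0.11, adjusted p = 0.00105) and Dtd1, which removes D-amino acids from tRNA, by 0.55 (SE 0.13, adjusted p = 0.00837).

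Of 10 tested tRNA maturation genes 3 rose, Pop5 and Pop4 of RNase P by 0.29 and 0.31 and Tsen34 of the splicing endonuclease by 0.28, and the calls of Pop4 and Tsen34 were each lost when any 1 of 6 arrays was left out and that of Pop5 without WT 5. Among 6 cytosolic elongation factors, Eef1b2, which reloads the tRNA carrier eEF1A with GTP, fell by 0.85 (SE 0.11, adjusted p = 8.29e-05) at 10.51 ± 0.09 against 11.36 ± 0.20 (SD, n = 5 each), and Eif5a rose by 0.47 (SE 0.14, adjusted p = 0.0194). Eef2, the translocase, fell by 0.52 (SE 0.18, adjusted p = 0.0404), a call lost when any 1 of 8 arrays was left out. Of 4 mitochondrial translation factors, Gfm2 rose by 0.54 (SE 0.12, adjusted p = 0.0054), and Tufm and Gfm1 were not called. Tsfm, the exchange factor of the mitochondrial tRNA carrier, rose by 0.44 (SE 0.12, adjusted p = 0.0126).

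In the list of the GCN2-ATF4 pathway, 11 of 13 genes were tested, 3 rose (27.3%) and 1 fell (9.09%), beside 12.3% and 15.4% of all features. Asparagine synthetase, Asns, was 2.35-fold higher (log2 difference 1.23, SE 0.16, adjusted p = 7.42e-05), where the asparagine tRNA enzyme Nars fell. Mthfd2, a mitochondrial folate enzyme, rose by 0.63 (SE 0.09, adjusted p = 0.000248). The cystine carrier gene Slc7a11 rose by 0.36 (adjusted p = 0.0499) at low means of 4.97 in TCL1-AT and 4.61 in WT. Its call was lost when any 1 of 8 arrays was left out. It was also lost without background correction, with median scaling and without the detection filter. Psat1 of serine synthesis fell by 0.64 (SE 0.16, adjusted p = 0.00908). Atf4 itself differed by 0.23 (SE 0.10, adjusted p = 0.106), and Ddit3, Trib3 and Chac1, further ATF4 targets, by 0.18, 0.11 and 0.03, and none of these was called. Slc3a2 (-0.33, adjusted p = 0.0606), Phgdh (0.28) and Shmt2 (0.03) were not called either. The median over this list was 0.18, beside 0.17 for the cytosolic synthetases and 0.02 for all features.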

How the data were processed

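RNA of sorted splenic monocytes was labelled and hybridised to Illumina mouse arrays, per the labels' protocols. For 46237 probes, the deposited table gives linear bead intensity values, not background-subtracted, and detection p-values, per the file headers. In the authors' series matrix these arrays are deposited as log2 values, which differed by at most 0.000428 from neqc (limma 3.58.1, R 4.3.3, offset 16) of the intensities. The scanner and software were not given in the sources used here.

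The log2 values of the series matrix were analysed. Probes detected (p under 0.05) on at least 5 arrays, 20241 in all, were reduced to 14859 features, the brightest probe of each of 11506 genes and 3353 probes with no gene listed. Of all probes 35784 had 1 symbol, 0 had several and 10453 none listed. Symbols were updated through RefSeq tables of GRCm38.p6, by Entrez identifier (28620 probes) or accession (2637). limma's lmFit and eBayes compared TCL1-AT with WT. The number of arrays limits the precision.

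Members, lists and tests were chosen with earlier results of these data known, and the split by multisynthetase complex after these values were seen. All 35 members are named. Array values are given for called genes without overlap (up to 12), their mitochondrial partners and the largest called fall of each class. Values of Tars2 and of Qars and Wars, separate but not called, and those of the other genes were added after they were seen. Alternatives changed the background correction, scaling, detection filter, probe rule, a covariate and a replicate block, and left out each array. Replicate numbers did not pair the samples: same-numbered deviations correlated at -0.174 to 0.201.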

Additional observations from a re-analysis of the deposited data

Results flagged for a closer look

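In 5 of 58 sets of 5 arrays (29 tested genes in each group), 1 array stood apart, where chance alone gives about 1 in 20. On TCL1-AT 4, Qars read 10.55 with the other TCL1-AT arrays at 10.39 or below, Sars 8.193 with the others at 7.871 or below, and Wars 9.174 with the others at 8.975 or below. On WT 5, Aars2 read 5.342 with the other WT arrays at 4.504 or below, and Rars2 7.413 with the others at 7.094 or below. Without TCL1-AT 4, Qars was called lower in limma's test, and without WT 5, Wars was called higher.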

How the results depend on the processing

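All 11 called members kept their sign under 18 alternatives, and Aars, Rars and Ears2 kept their call in each. With raw signal as a covariate the counts were 2 cytosolic higher and 1 lower, 1 mitochondrial higher and 0 lower, and 3 and 2 for the partner genes, with medians of 0.273 and 0.0782 over the cytosolic and mitochondrial enzymes. All features fell from 1828 higher and 2291 lower to 766 and 1048, and without the detection filter 1600 and 2053 of 32399 were called. The cause was not tested. Mitochondrial enzymes called lower numbered 2 without background correction and 0 with median scaling or no detection filter. The replicate block gave 1 cytosolic enzyme lower, 1 mitochondrial higher and 0 lower, and 4 partner genes higher. It ended the calls of Mars1, Nars, Tars2 and Mars2, and only 1 of 5 numbers matched best with its own. With 1 array left out, cytosolic counts were 5 to 7 higher and 1 to 2 lower, mitochondrial 2 to 2 higher and 0 to 1 lower, and partner genes 6 to 10 and 4 to 7. The medians were 0.135 to 0.254 and -0.0549 to 0.0104, and Eprs (-0.104 to 0.0225), Sars (-0.0493 to 0.0967) and Vars2 (-0.0158 to 0.122), none called, changed sign. The mean over probes turned Eprs (0.17) and Sars (-0.117), and the covariate turned Eprs (0.00479), Farsa (-0.134), Tars (0.0789), Aars2 (0.0705), Pars2 (0.0161), Vars2 (-0.0725) and Wars2 (0.1), none called. Probes near background, as for Aars2, can understate differences.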
